A study of Homo sapiens with 6 samples.

Results

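The genes described here are 10 transcription factors of the AP-1 and immediate early group: FOS, FOSB, FOSL1, FOSL2, JUN, JUNB, JUND, EGR1, EGR3 and ATF3. They were chosen by name, with earlier results of these data known. The NCBI gene identifier of each row of the count table was matched to its symbol. All 10 were found among the 28395 genes of the table, and all 10 passed the filter on low counts. The libraries come from U251MG, an established human glioblastoma cell line, and form 2 groups of 3, WT and NUAK2-CR, in the second of which the kinase gene NUAK2 was targeted with CRISPR-Cas9. No drug, stimulus or time point distinguishes the groups in the labels. According to the study's methods, the edited cells were transduced with lentiviral Cas9 vectors carrying a NUAK2 guide and sorted into multiwell plates to grow as clones. The labels name neither the clone nor whether the 3 libraries of a group came from separate cultures, so an effect of the edit and a property of the clone cannot be told apart. For the same reason the p-values measure the spread between these libraries, which may be technical.

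AP-1 is a family of dimers built from JUN proteins and partners of the FOS and ATF groups, joined through a basic region and leucine zipper (bZIP). JUN proteins can pair with each other, whereas FOS proteins bind DNA only with a partner. Several of these genes are immediate early genes: their transcription starts within minutes of a growth factor, serum or stress signal, without new protein synthesis, through serum response factor (SRF), ETS factors and CREB/ATF factors at their promoters. EGR1 and EGR3 are zinc finger factors induced by the same signals, and ATF3 is a bZIP factor induced by stress. In glioblastoma, FOSL1, FOSL2 and JUN are known as factors of the mesenchymal expression state.

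Of the 10 promoters, 8 were found in the RefSeq promoter table of GRCh38.p14, and FOSL1 and EGR3 had no entry in it. The 250 bases before the annotated start were searched on both strands for the AP-1 site TGANTCA, the JUN/ATF site TGACATCA, the CRE TGACGTCA, the CArG box bound by SRF and the EGR site GCGNGGGCG. None of the member promoters searched held TGANTCA in this window, against 6.57% of all windows of the table. JUN, JUND and EGR1 are shown because JUN and JUND are paralogs that moved in opposite directions and EGR1 had the largest increase among members with a window. Capitals mark the matches, and each sequence is on the strand of its gene, in positions chr1:58784048-58784297 (minus strand) for JUN, chr19:18281623-18281872 (minus strand) for JUND and chr5:138465229-138465478 (plus strand) for EGR1.
JUN: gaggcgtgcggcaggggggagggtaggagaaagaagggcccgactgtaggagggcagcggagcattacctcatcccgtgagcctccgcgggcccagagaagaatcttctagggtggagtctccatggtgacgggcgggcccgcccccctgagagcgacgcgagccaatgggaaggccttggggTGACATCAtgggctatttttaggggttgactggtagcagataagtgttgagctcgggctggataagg
JUND: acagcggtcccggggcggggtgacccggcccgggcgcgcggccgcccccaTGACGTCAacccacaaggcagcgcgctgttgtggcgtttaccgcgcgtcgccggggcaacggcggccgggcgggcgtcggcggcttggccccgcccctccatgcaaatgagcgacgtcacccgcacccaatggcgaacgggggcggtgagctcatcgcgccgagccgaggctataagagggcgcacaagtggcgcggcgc
EGR1: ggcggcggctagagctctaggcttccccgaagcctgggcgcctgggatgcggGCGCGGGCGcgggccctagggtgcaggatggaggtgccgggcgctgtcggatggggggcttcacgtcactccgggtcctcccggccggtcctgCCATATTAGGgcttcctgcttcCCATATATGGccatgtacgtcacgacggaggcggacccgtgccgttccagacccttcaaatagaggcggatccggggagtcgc
The JUN window holds TGACATCA from 67 to 60 bases before the start, a sequence found in 2.38% of the 35114 windows of the table, and an ATF3 window holds the same letters from 123 to 116 bases before its start. The JUND window holds the CRE from 200 to 193 bases before the start, against 1.65% of all windows. The EGR1 window holds 2 CArG boxes, CCATATTAGG and CCATATATGG, and 1.16% of all windows hold at least 1. It also holds the EGR site GCGCGGGCG, found in 8.41% of windows. These are matches of letters, and binding was not measured here.

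Counts on genes ranged from 29648445 to 55574081 per library, lowest in NUAK2-CR replicate 1 and highest in WT replicate 1, and normalized counts below are scaled to the mean effective library size. NUAK2 itself had 1926, 1457 and 1580 normalized counts in WT against 799, 961 and 849 in NUAK2-CR. The log2 fold change was -0.93 with a standard error of 0.11 (edgeR-adjusted p = 1.8e-05), so its transcript was lower but still present in the edited cells. The study reported the deletion in its U251 clones by immunoblot and qPCR, and protein was not measured here. Among 10 glioma and astrocyte markers, VIM, NES and SOX2 were abundant in both groups, whereas OLIG2 was at 0 in every library and AQP4 was near 0. Of the 8 markers tested, 5 were lower in NUAK2-CR and none passed the threshold in the other direction, with a summed level of 230012 to 235698 in WT and 105838 to 112889 in NUAK2-CR. On the log2 scale S100B moved by -2.60 and GFAP, the intermediate filament of astrocytes, by -2.56. NES, SOX2 and VIM were lower by -1.56, -1.11 and -0.49. SOX9 (-0.14), SLC1A3 (0.26) and ALDH1L1 (0.91, from low counts) did not pass the threshold. The tested genes around GFAP, NES and SOX2 had medians of -0.33, -0.48 and -0.24. Those around S100B and VIM had medians of 0.27 and 0.05. Of 10 markers of other cell types, AIF1 and CD3E were at 0 in all libraries, 6 were tested, 2 were higher and 2 lower. The summed level of that list was 4057 to 4706 in WT and 5474 to 6023 in NUAK2-CR, mostly from KRT18. The part of these shifts in the results below was not tested. The comparison was wide: 54.5% of the 14873 genes tested passed an adjusted p threshold of 0.05 by edgeR's quasi-likelihood test with Benjamini-Hochberg adjustment over all of them, 26.3% higher and 28.2% lower in NUAK2-CR. In bulk libraries a change in RNA per cell cannot be told apart from a change in the share of cells that express the gene.

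In NUAK2-CR cells, 7 of the 10 members were higher than in WT, 1 was lower and 2 did not pass the threshold. The share called, 80.0%, stands beside 54.5% of all genes tested. The genes that rose were EGR3, EGR1, ATF3, JUND, JUNB, FOSL1 and FOSL2, in order of the size of the increase. JUN was the gene that fell, though by less than the genes around it on chromosome 1, and FOS and FOSB were not distinguishable between the groups. The median log2 fold change of the 10 members was 0.43, against -0.01 over all genes tested. For 8 of the 10 the WT and NUAK2-CR libraries did not overlap, with 7 higher and 1 lower in NUAK2-CR. Over all genes tested this share was 61.4%, made of 29.8% higher and 31.5% lower. An absolute log2 fold change over 2, the threshold used in the study, was passed by EGR3 alone, against 4.72% of all genes tested.

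**Figure D1:**
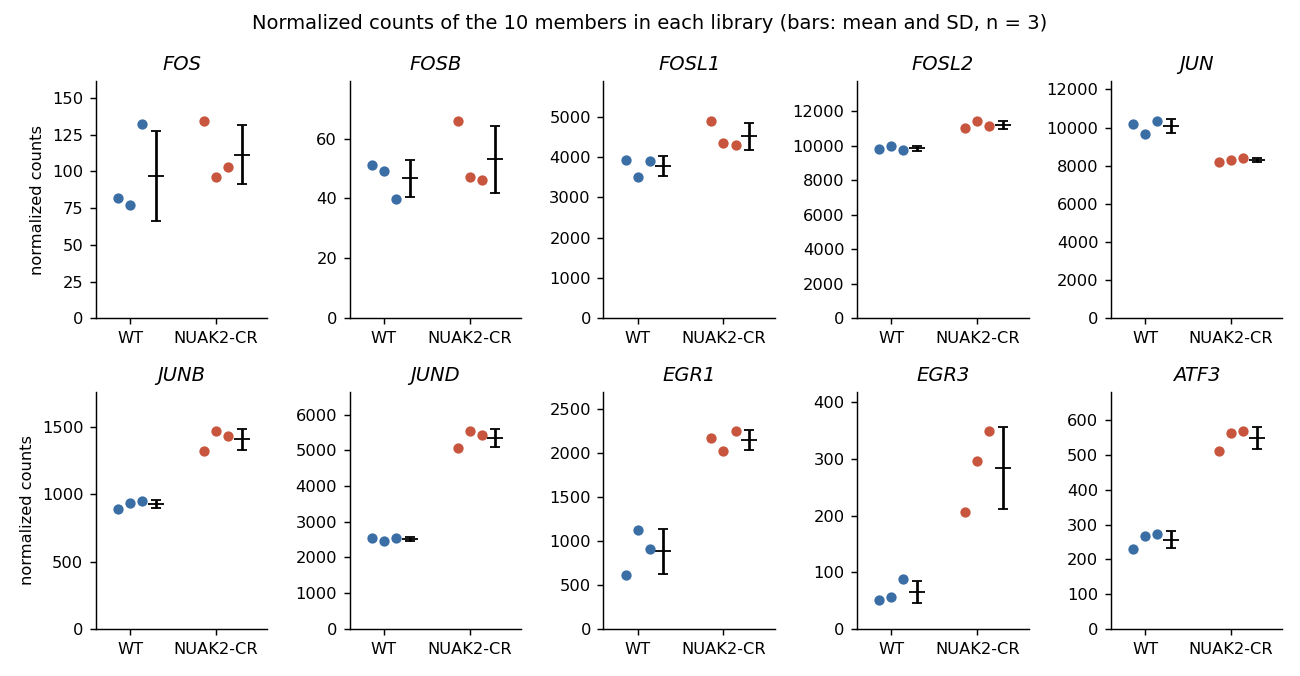
Normalized counts (vertical axes, each starting at 0) of the 10 members in the 3 WT and 3 NUAK2-CR libraries; points are libraries and bars give the mean and SD of each group. The groups are separate in every panel except FOS and FOSB, and JUN is the panel in which NUAK2-CR lies lower.

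The JUN family supplied both directions. JUN (c-Jun, gene 3725, chromosome 1 from 58780791 to 58784047, a gene of 1 exon), which is activated by the JNK kinases, had 10204, 9655 and 10368 normalized counts in WT against 8204, 8300 and 8379 in NUAK2-CR. All 3 NUAK2-CR libraries lay below all 3 WT libraries. SE below is the standard error of a log2 fold change. The means were 10076 ± 373 (SD, n = 3) and 8294 ± 87.4 (SD, n = 3), or -0.28 on the log2 scale (SE 0.06, edgeR-adjusted p = 0.00234), or 82.3% of WT. Genes along chromosome 1 were lower in NUAK2-CR in general: the 100 tested genes around JUN had a median of -0.44, and all 1541 tested genes of the chromosome a median of -0.43. Less the median of its neighbours, a step added after the values were seen, JUN stood at 0.16, with the opposite sign. The fall of JUN was thus smaller than that of the typical gene around it, and the difference between them was not tested.

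JUND (gene 3727, chromosome 19 from 18279694 to 18281622, also 1 exon), a JUN protein usually expressed at steady levels and often linked to slower growth, was the member of the family that rose most. Its WT libraries had 2551, 2456 and 2540 normalized counts, against 5059, 5532 and 5425 in the NUAK2-CR libraries. The groups were far apart relative to the spread within them, with means of 2516 ± 52.1 (SD, n = 3) and 5339 ± 248 (SD, n = 3). The log2 fold change was 1.09 (SE 0.07, edgeR-adjusted p = 5.46e-08), or 2.12-fold. Among the alternatives tried it ranged from 1.06 to 1.14. Its 100 neighbours on chromosome 19 had a median of 0.17.

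JUNB (gene 3726, chromosome 19 from 12791486 to 12793315), an immediate early gene whose protein can antagonize c-Jun, had 894, 940 and 948 normalized counts in WT. In NUAK2-CR it had 1323, 1470 and 1435. Every NUAK2-CR library was above every WT library. The log2 fold change was 0.61 or, in linear terms, 1.52-fold (SE 0.08, edgeR-adjusted p = 3.9e-05). JUNB shares 259 bases, or 14.2% of its transcript, with exons of HOOK2 on the opposite strand. Counting used default parameters, which take no account of strand, so reads of the pair in the shared bases cannot be told apart. The annotation used for counting is not given, so whether such reads entered the JUNB count is not known. HOOK2 itself had a log2 fold change of 0.14 (edgeR-adjusted p = 0.316).

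These changes altered the make-up of the JUN family. Levels of different genes were compared as normalized counts per kilobase of the MANE Select transcript, the reference transcript of each gene in GENCODE release 44. On this scale JUN supplied 63.4%, 62.4% and 63.4% of the family's summed level in the WT libraries and 43.0%, 41.0% and 41.7% in the NUAK2-CR libraries. JUND supplied 26.8%, 26.8% and 26.2% in WT and 44.7%, 46.1% and 45.6% in NUAK2-CR. JUNB went from a mean of 10.3% ± 0.46 (SD, n = 3) to 12.7% ± 0.30 (SD, n = 3). For each of the 3 genes the two-sided exact permutation test gave p = 0.1, the smallest value that 3 libraries against 3 allow. The ratio of JUN to JUND was 2.37, 2.33 and 2.42 in WT and 0.960, 0.889 and 0.915 in NUAK2-CR, so the order of the pair turned over. The order depends on the division by length: in counts not divided by length JUN made up 74.5% of the family in WT and 55.2% in NUAK2-CR, and stayed the largest. The summed level of the family per kilobase averaged 4904 ± 138 (SD, n = 3) over WT libraries and 6084 ± 192 (SD, n = 3) over NUAK2-CR libraries, a ratio of 1.24 (p = 0.1, two-sided exact permutation test).

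**Figure D2:**
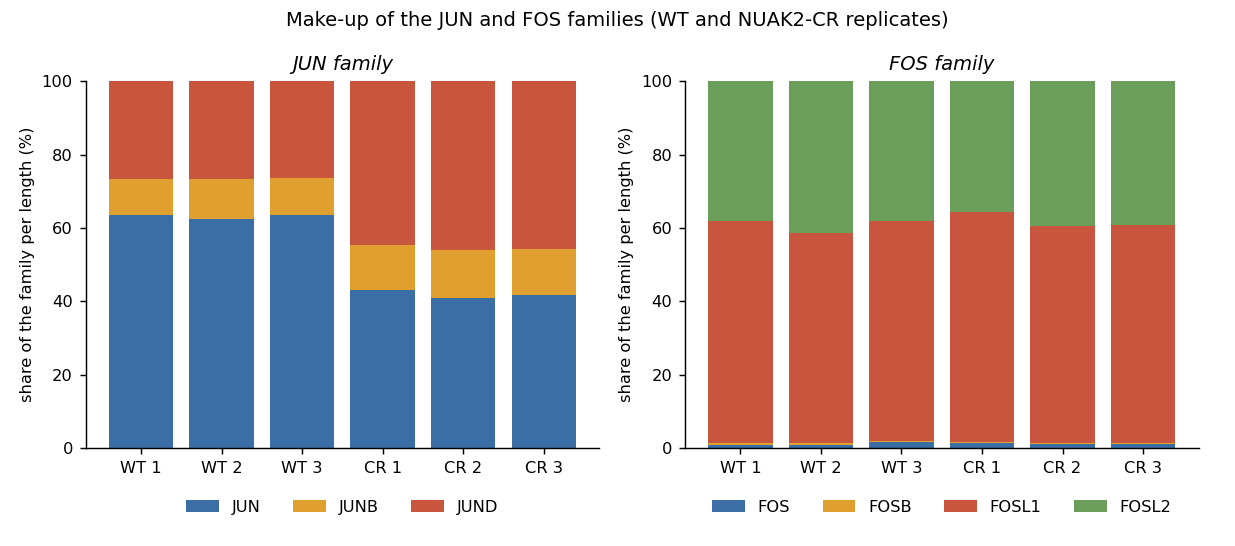
Share in percent of each gene in the summed level per length of the JUN family (left) and the FOS family (right), 1 bar per library, WT replicates then NUAK2-CR replicates. JUN falls from about 63.1% on average to 41.9% while JUND rises from 26.6% to 45.5%, and the FOS family bars look alike in both groups.

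The changes in the FOS family were small. FOSL1 (Fra-1, gene 8061, chromosome 11 from 65892049 to 65900545), a stable FOS protein maintained by ERK signalling in many tumour cells, had 3925, 3500 and 3913 normalized counts in WT against 4910, 4358 and 4297 in NUAK2-CR. The groups did not overlap, with the highest value in NUAK2-CR replicate 1. The log2 fold change was 0.26 (SE 0.08, edgeR-adjusted p = 0.0128). Without WT replicate 2 the adjusted p was 0.0511 and without NUAK2-CR replicate 1 it was 0.055, with fold changes of 0.20 and 0.21.

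FOSL2 (Fra-2, gene 2355, chromosome 2 from 28392858 to 28417317), the other FOS-related antigen, had 9788, 9997 and 9739 normalized counts in WT against 10999, 11456 and 11153 in NUAK2-CR. The ranges were narrow and separate, and the log2 fold change was 0.19 (SE 0.06, edgeR-adjusted p = 0.0213). It did not pass the threshold without WT replicate 3 (adjusted p = 0.0624), NUAK2-CR replicate 2 (0.0911) or NUAK2-CR replicate 3 (0.0681).

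FOS (c-Fos, gene 2353, chromosome 14 from 75278828 to 75282230), the founding immediate early gene, was scarce in these cells. It had 123, 80 and 123 counts in the WT libraries and 106, 80 and 94 in the NUAK2-CR libraries, or 97.0 ± 30.6 (SD, n = 3) and 111 ± 20.3 (SD, n = 3) normalized counts. The groups overlapped, and the log2 fold change of 0.21 was smaller than its standard error of 0.25 (edgeR-adjusted p = 0.517). FOSB (gene 2354, chromosome 19 from 45467996 to 45475179), another inducible FOS protein, was scarcer still, with 77, 51 and 37 counts in the WT libraries and 52, 39 and 42 in the NUAK2-CR libraries. These groups overlapped too. ERCC1, which spans FOSB on the other strand without sharing exonic bases, had a log2 fold change of -0.06 (edgeR-adjusted p = 0.495). The log2 fold change of FOSB was 0.17 (SE 0.28, edgeR-adjusted p = 0.63), so a difference of such a size was within the error. Per kilobase, FOSL1 and FOSL2 made up nearly the whole family. FOSL1 supplied 59.3% ± 1.79 (SD, n = 3) of the WT sum and 60.4% ± 1.93 (SD, n = 3) of the NUAK2-CR sum (p = 0.6, two-sided exact permutation test). FOSL2 supplied 39.2% ± 1.94 (SD, n = 3) and 38.0% ± 2.14 (SD, n = 3), with the same p = 0.6 by permutation. The summed level of the family per kilobase averaged 3745 ± 130 (SD, n = 3) over WT libraries and 4393 ± 188 (SD, n = 3) over NUAK2-CR libraries, a ratio of 1.17 (p = 0.1, two-sided exact permutation test).

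The EGR genes had the largest increases among the members. EGR1 (gene 1958, chromosome 5 from 138465479 to 138469303), whose protein binds GC-rich promoter sites and which carries the CArG boxes printed above, had 617, 1124 and 904 normalized counts in the WT libraries and 2175, 2020 and 2248 in the NUAK2-CR libraries. The WT libraries differed among themselves more than the NUAK2-CR libraries did, but the lowest NUAK2-CR value was above the highest WT value. The mean rose from 882 ± 254 (SD, n = 3) to 2148 ± 117 (SD, n = 3), or 1.29 on the log2 scale (SE 0.16, edgeR-adjusted p = 2.63e-05), or 2.45-fold. It was 1.09 without WT replicate 1 and 1.51 without WT replicate 2. The 100 genes around EGR1 had a median of -0.18.

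EGR3 (gene 1960, chromosome 8 from 22687659 to 22693480), a related zinc finger factor, had 78, 58 and 82 counts in the WT libraries and 162, 246 and 318 in the NUAK2-CR libraries. In normalized counts these were 51.8, 56.0 and 88.1 in WT and 206, 297 and 349 in NUAK2-CR, with no overlap. The log2 fold change was 2.14 (SE 0.25, edgeR-adjusted p = 1.54e-05), and the NUAK2-CR mean was 440% of WT. It was 1.99 without WT replicate 1 and 1.96 without NUAK2-CR replicate 3, in both cases under the study's threshold of 2. EGR3 shares 164 exonic bases with a long noncoding RNA on the opposite strand that was not used here.

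ATF3 (gene 467, chromosome 1 from 212565407 to 212620777), a bZIP factor induced by the integrated stress response and by growth signals that pairs with JUN proteins, had 230, 268 and 273 normalized counts in WT. In NUAK2-CR it had 513, 564 and 569. The lowest NUAK2-CR library was far above the highest WT library, and the log2 fold change was 1.10 (SE 0.12, edgeR-adjusted p = 8.61e-06), or 2.14-fold. ATF3 lies on chromosome 1, where the 100 genes around it had a median of -0.39. Less that median it stood at 1.49.

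**Figure D3:**
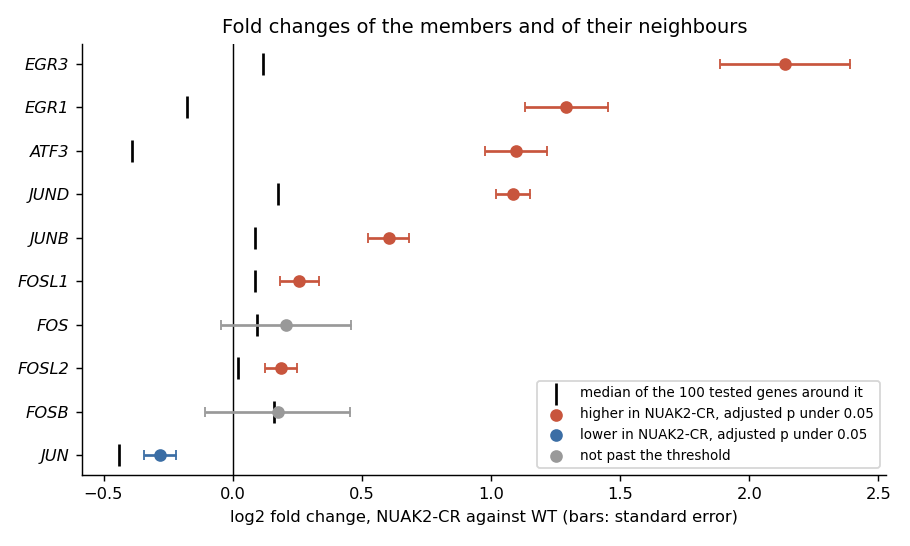
Log2 fold change of each member in NUAK2-CR against WT (horizontal axis), with the standard error as bars and the median of the 100 tested genes around each member on its chromosome as a black tick. EGR3 stands highest at 2.14 and JUN lowest at -0.28, to the right of its neighbours' median of -0.44.

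In level per kilobase the members spanned a wide range, and the top of the order differed between the groups. In WT the order was JUN at 3094, FOSL1 at 2220, FOSL2 at 1466, JUND at 1304, JUNB at 507, EGR1 at 281, ATF3 at 132, FOS at 46.1, EGR3 at 14.5 and FOSB at 12.4 normalized counts per kilobase. The ranges of neighbouring genes in this order were separate except for EGR3 and FOSB. In NUAK2-CR, JUND at 2768, FOSL1 at 2657 and JUN at 2547 stood close together: JUND overlapped FOSL1 and FOSL1 overlapped JUN, though the ranges of JUND and JUN were apart. FOSL2 followed at 1669, JUNB at 770, EGR1 at 685 and ATF3 at 283. EGR3, at 62.9, had moved up beside FOS, at 53.0, and their ranges overlapped. FOSB remained last at 14.1.

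Within a group the 10 members did not all move the same way, though some of them did in single libraries. On the log2 scale, the SD over the 3 WT libraries was 0.44 for EGR1, 0.43 for FOS and 0.41 for EGR3, but 0.02 for FOSL2, 0.03 for JUND and 0.05 for JUN. In WT replicate 1, EGR1 was at -0.47 relative to its group mean, EGR3 at -0.29, FOS at -0.20 and ATF3 at -0.16. FOSB was at 0.14 there, from low counts of 77, 51 and 37 in the WT libraries. In WT replicate 3, FOS was at 0.49 and EGR3 at 0.47 while EGR1 was at 0.08. In the NUAK2-CR group the SD was 0.39 for EGR3 and 0.08 for EGR1, and replicate 1 held the highest FOS and FOSB with the lowest EGR3. Over the 10 members the median deviation of a library ranged from -0.03 to 0.05.

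The other immediate early genes were read from a list of 26, of which 23 were tested. In NUAK2-CR 12 were higher and 5 lower, or 73.9% called, with a median log2 fold change of 0.40. EGR2, the third zinc finger gene of the EGR family, rose most, from 47.8, 54.0 and 62.3 normalized counts in WT to 836, 911 and 945 in the edited cells. This is 4.05 on the log2 scale (SE 0.14, edgeR-adjusted p = 4.4e-10), the only one in the list past the threshold of 2. TRIB1, a pseudokinase that directs protein degradation, had 1.85, with its 100 neighbours on chromosome 8 at a median of 0.64. RHOB, a small GTPase gene induced by growth factors, had -1.08 and BTG2, an antiproliferative gene on chromosome 1, had -0.58. Both had an adjusted p-value under the threshold. The 100 tested genes around BTG2 had a median of -0.43, and those around RHOB a median of 0.15. IER3 had 1 count in all libraries together and EGR4 had none, so neither could be assessed.

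Among 13 further bZIP genes that can pair with AP-1 proteins, 12 were tested, 8 were higher, 1 was lower and BATF had no count. The median was 0.55, and 75.0% were called, beside 54.5% of all genes tested (26.3% higher and 28.2% lower). JDP2, a repressor that dimerizes with JUN proteins, had 134, 150 and 196 normalized counts in the WT libraries against 518, 444 and 534 in the edited ones, giving 1.65 on the log2 scale (SE 0.16, edgeR-adjusted p = 2.81e-06). BATF3, which lacks a transactivation domain, had 1.17 and ATF2, a CRE-binding partner of JUN, had 0.29. The tested genes around ATF2 had a median of 0.21 and those around BATF3 -0.39. MAFG, a small MAF protein on chromosome 17, was lower at -0.27. The 79 tested genes around it had a median of -0.39, and less that median MAFG stood at 0.12, with the opposite sign.

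Of 27 genes that act upstream on these promoters or hold the factors in check, all were tested, with 9 higher, 6 lower and 55.6% called, close to the 54.5% of all genes. The median was 0.10. NAB1 and NAB2, the corepressors that bind EGR proteins, were the 2 highest. NAB2 rose from 745, 632 and 806 normalized counts in WT to 1696, 1938 and 1932 in the edited cells, which is 1.35 on the log2 scale (SE 0.10, edgeR-adjusted p = 2.88e-07), and NAB1 had 0.87. MAP2K4, a kinase that activates JNK, went from 2625, 2814 and 2686 to 1260, 1270 and 1406, which is -1.04 on the log2 scale (SE 0.07, edgeR-adjusted p = 1.78e-07). MAP2K4 is on chromosome 17, where the 100 genes around it had a median of -0.39. RPS6KA1, an ERK-activated kinase on chromosome 1, had -0.99, with its neighbours at -0.52.

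Known AP-1 target genes went both ways. Of 21 listed, 20 were tested, 8 were higher and 9 lower. The share called was 85.0%, beside 54.5% of all genes tested (26.3% higher and 28.2% lower), and the median was 0.15. HMOX1, which degrades haem, rose by a log2 fold change of 1.36 and HMGA2, a chromatin architectural gene, by 1.12. IL11, a cytokine of the IL6 family, had 2596, 2246 and 2599 normalized counts in WT against 345, 461 and 330 in NUAK2-CR, which is -2.71 on the log2 scale (SE 0.12, edgeR-adjusted p = 3.57e-09). The summed level of the list was 229860 to 266922 in WT and 142489 to 145442 in NUAK2-CR, so it was lower in every NUAK2-CR library although its median was above 0. MMP9, MMP10 and IL11 were among the genes of this list past the threshold of 2, with MMP9 at -3.46 and MMP10 at -2.37 from low counts.

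Genes that mark stress or handling moved with the members in part. Of 10 genes of the integrated stress response, the programme that acts through ATF4 and induces ATF3, 8 were higher and 1 lower. The median was 0.83, and 90.0% were called, beside 54.5% of all genes tested (26.3% higher and 28.2% lower). CHAC1, which degrades glutathione, had 1.87 and TRIB3, a pseudokinase target of ATF4, 1.48, while VLDLR, a lipoprotein receptor, was at 49.9% of its WT level. SESN2, a stress-induced regulator of growth signalling, had 0.58, with its neighbours on chromosome 1 at a median of -0.46. The summed level of the list was 27536 to 32872 in WT and 41883 to 45175 in NUAK2-CR. The 8 heat shock genes tested were all lower, or 100% called, beside 28.2% of all genes tested that were lower. Their median was -0.60, and the summed level over the list was 322832 to 339424 in WT and 199612 to 215435 in NUAK2-CR. HSPH1 had -1.34, HSP90AA1 -0.97, HSPE1 -0.37 and HSPD1 -0.22, all chaperones. The tested genes around HSPH1 had a median of -0.48, those around HSP90AA1 0.04 and those around HSPE1 and HSPD1 0.22. HSPA1A and HSPA1B, near-identical copies of each other, had at most 6 counts in a library and were not tested. The part of either programme in the changes of ATF3 and the other members was not tested.

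**Figure D4:**
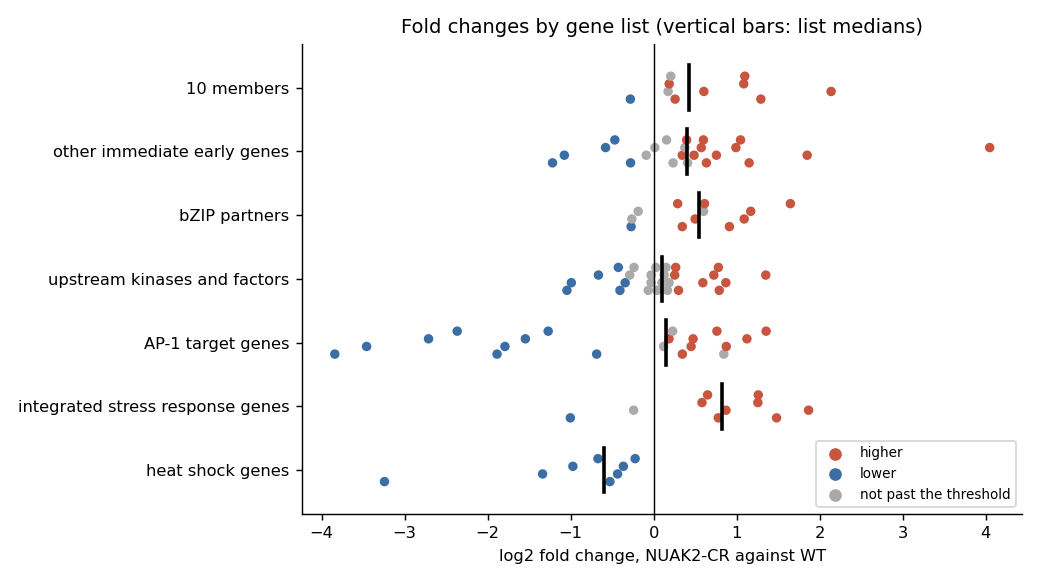
Log2 fold change in NUAK2-CR against WT (horizontal axis) of each tested gene in 7 lists, coloured by whether it was higher, lower or not past the adjusted p threshold, with list medians as vertical bars. The members have a median of 0.43, the integrated stress response genes 0.83 and the heat shock genes -0.60, while the AP-1 targets spread widely to both sides of a median of 0.15.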

How the data were processed

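RNA of 3 WT and 3 NUAK2-CR libraries of U251MG cells was sequenced as poly(A) mRNA. The deposited values are raw read counts per gene: the authors processed reads with bcl2fastq and Trimmomatic, used HISAT2 for alignment to hg38, and obtained gene counts with featureCounts at default parameters. These defaults count without regard to strand. The gene annotation is not given in the sources used here. Of 28395 gene identifiers, 27745 were matched to a RefSeq symbol and 650 were not. Library totals were 29648445 to 55574081 counts, and the precision of a low gene is set by its count. A floor of 3 counts is the most that a count of 0 allows, for counting error only.

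Counts were tested with edgeR 4.0.16 in R 4.3.3 (filterByExpr, TMM, glmQLFit, glmQLFTest, prior count 0.125) over 14873 genes, with Benjamini-Hochberg adjustment and a threshold of 0.05. The study used DESeq2, which is an alternative here (version 1.42.0). A normalized count is the count divided by its effective library size and multiplied by the mean of these sizes. Standard errors are the log2 fold change divided by the square root of F. Shares used exact permutation tests over libraries. Around each member, the 50 tested genes on each side on its chromosome were taken. The fit was tested on simulated data. Lists comprised the other immediate early, bZIP, upstream, AP-1 target, integrated stress response, heat shock, glioma marker and other cell type marker genes. The members and lists were chosen with earlier results of these data known. Named genes are the members, NUAK2, genes overlapping a member on the other strand and, per list, the 2 highest and 2 lowest called genes averaging 100 or more normalized counts, as well as markers; EGR4, IER3, BATF, MMP9, MMP10, HSPA1A and HSPA1B were named after their values were seen. A gene that this rule selects from the AP-1 target list is not reported here. Alternatives were DESeq2, RLE and library-size scaling, a filter of 10 counts in every library, no filter apart from 1 count, each library left out, a replicate block, a prior count of 2, thinning to the smallest total, a log2 threshold of 1 and, chosen after seeing the data, values less the median of neighbouring genes and shares per length of all exons. Equal replicate numbers did not pair the libraries. Tables and figures were made in Python 3.11.15 (pandas 2.3.3, matplotlib 3.10.9).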

Additional observations from a re-analysis of the deposited data

How the results depend on the processing

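Of the 10 members, FOS, FOSB, JUN, JUNB, JUND, EGR1, EGR3 and ATF3 kept their direction and their side of the threshold under the 14 alternatives that gave a test, and FOSL1 and FOSL2 lost the call only when a library was left out, as given above. With a library left out, the number of members higher in NUAK2-CR was 6 to 7 and the number past an absolute log2 fold change of 2 was 0 to 1, at 0 without WT replicate 1 or NUAK2-CR replicate 3. A threshold of 1 gave 4 members, and 13.9% of all genes tested. Less the median of neighbouring genes JUN was 0.16, of opposite sign. Shares in counts not divided by length differed between NUAK2-CR and WT by -19.4 percentage points for JUN and 16.9 for JUND, against -21.2 and 18.9. With a library left out, the small differences in share crossed 0: from -0.131 to 0.183 for FOS, -0.0432 to 0.00319 for FOSB and -1.84 to 0.0933 percentage points for FOSL2.

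With a library left out, the lower bZIP partners numbered 1 to 2, the lower integrated stress response genes 1 to 2 and the higher glioma markers 0 to 1. Without a filter beyond 1 count there were 2 lower integrated stress response genes. DESeq2, library-size scaling, no filter and the replicate block each gave 1 higher glioma marker, against 0. At least 10 counts in every library left 1 higher marker of other cell types, against 2, and 339 genes past a log2 fold change of 2, against 702. The median log2 fold change over all genes was between -0.01 and 0.00 under each scaling. Deviations of libraries with the same replicate number correlated at 0.0388, -0.0271 and 0.0439, and the replicate block moved the calls over all genes from 8107 to 8167, with EGR3 at 2.12.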
